A study of Mus musculus and Mus musculus
Rattus norvegicus with 30 samples.

Results

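The Hoxa cluster holds homeobox transcription factor genes in a row on mouse chromosome 6. The 9 genes described here are Hoxa2, Hoxa3, Hoxa4, Hoxa5, Hoxa6, Hoxa7, Hoxa9, Hoxa10 and Hoxa11. They were taken by name from the RNA-seq tables, where they make up 9 of the 19919 genes listed for mouse embryonic stem cells (mESCs). The peaks of accessible chromatin and of Cdx2 binding that overlap the window spanning the cluster belong to the same set, with 35 of 122350 ATAC-seq peaks, 15 of 91665 Cdx2 ChIP-seq peaks in mESCs and 12 of 74650 Cdx2 ChIP-seq peaks in RMES cells. In the mm10 build all 9 genes lie on the minus strand. Hoxa2 starts 2.41 kb, Hoxa7 59.4 kb and Hoxa11 83.4 kb from the 3' end of Hoxa2. By their 3' ends, the genes follow their numbering from 3' to 5'. The annotated Hoxa3 unit is long, and its furthest start at 50.9 kb lies beyond those of Hoxa4 (29.3 kb), Hoxa5 (42.2 kb) and Hoxa6 (46.3 kb).

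Hox proteins give cells along the body axis their position. In the embryo the 3' genes of a cluster are used early and in anterior tissue, and the 5' genes later and more posteriorly. Before use, the cluster is packed in chromatin marked by Polycomb proteins. Cdx proteins are caudal-type homeobox factors that act upstream of Hox genes in the posterior embryo, and Cdx2 is also a determinant of the trophectoderm and the gut epithelium.

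RNA-seq in mESCs compared 10 groups with 2 libraries each: WT cells, mCdx2-OE cells that overexpress mouse Cdx2, rCdx2-OE cells that overexpress rat Cdx2, and cells with each of 7 mutants of rat Cdx2. The mutants (R1, R2, R3, R12, R13, R23 and R123) carry 1 or more of the 3 amino acid changes that set mouse Cdx2 apart within the DNA-binding domain, and the digits name the changes. Each Flag-tagged Cdx2 was brought in by lentivirus under a promoter that responds to doxycycline (DOX), and each construct has a stable line of its own. The study set cells after DOX against cells before it, and the labels call the controls WT without naming their line. Nothing states that the libraries of a group came from separate cultures, so p-values measure only the spread between these libraries. RMES cells are embryonic stem cells from the fusion of a mouse and a rat haploid cell, and each library gives a table of mouse counts (the mouse allele) and one of rat counts (the rat allele). RNA-seq in RMES cells covered 2 WT libraries, 1 mCdx2-OE library and 1 rCdx2-OE library. ATAC-seq covered 1 WT and 1 mCdx2-OE library of mESCs, and ChIP-seq with the Flag antibody covered 1 mCdx2-OE and 1 rCdx2-OE library in each cell type. Those assays have no replicates.

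Depth ranged from 74960057 to 94686029 counts in the WT libraries and from 12698443 to 24315929 counts in the 18 induced libraries of mESCs, so low counts in induced cells carry the larger counting error. Cdx2 stood at 1.21 to 1.36 CPM (counts scaled to library size) in WT and at 37.2 to 147 CPM in the induced libraries. Reads of the rat-based transgenes were counted on the mouse gene, and how completely they align to it was not tested. The summed level of 10 pluripotency markers was 5467 to 5615 CPM in WT, 3643 to 4195 CPM in mCdx2-OE and rCdx2-OE and 4436 to 5864 CPM in the mutants, with no marker at 0. For 9 trophoblast markers other than Cdx2 the sums were 160.7 to 162.3, 597 to 832.4 and 163.7 to 299.5 CPM in the same order. The labelled cell type was thus seen in its markers, and the mutant lines had a lower trophoblast sum than the intact Cdx2 lines. In bulk RNA, fewer cells of a type and less RNA per cell cannot be told apart.

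The Cdx2 binding sequences at the cluster are shown first, since the expression values below concern the genes around them. The central 200 bases of the 3 mESC ChIP-seq peaks with the most reads in the window are printed 5' to 3' on the plus strand of mm10. Capitals mark the word CATAAA, the core of the known Cdx2 site, or its reverse complement TTTATG. They lie in the Hoxa3 transcription unit 3492 bases downstream of a Hoxa5 start site, in Hoxa7, and in an intron of Hoxa4.
peak 3' of Hoxa5, chr6:52200995-52201194: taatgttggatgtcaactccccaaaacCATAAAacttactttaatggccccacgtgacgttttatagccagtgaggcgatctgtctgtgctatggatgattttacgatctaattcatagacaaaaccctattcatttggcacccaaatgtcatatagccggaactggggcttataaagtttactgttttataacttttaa
peak in Hoxa7, chr6:52216703-52216902: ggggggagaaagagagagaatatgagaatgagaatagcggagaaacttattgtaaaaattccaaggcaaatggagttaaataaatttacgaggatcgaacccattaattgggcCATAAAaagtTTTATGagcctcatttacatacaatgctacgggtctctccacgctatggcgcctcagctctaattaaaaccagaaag
peak in Hoxa4, chr6:52190816-52191015: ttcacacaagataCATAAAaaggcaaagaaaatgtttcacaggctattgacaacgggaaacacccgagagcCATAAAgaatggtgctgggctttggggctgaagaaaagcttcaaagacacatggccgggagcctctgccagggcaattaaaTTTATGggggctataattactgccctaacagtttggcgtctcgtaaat
These windows hold 1, 2 and 3 copies of the word.

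In WT mESCs the 9 genes were near silence. Hoxa7 had 49 and 57 reads (0.694 and 0.651 CPM) in the WT libraries, Hoxa3 14 and 10, Hoxa4 7 and 20, Hoxa10 7 and 5, and Hoxa9 2 and 2. The other 4 genes had between 1 and 8 reads in each WT library. Per kb of exon, Hoxa7 was highest in WT at 0.233 to 0.248 CPM per kb, and Hoxa4 was next at 0.0622 to 0.143, with no overlap between them.

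**Figure D1:**
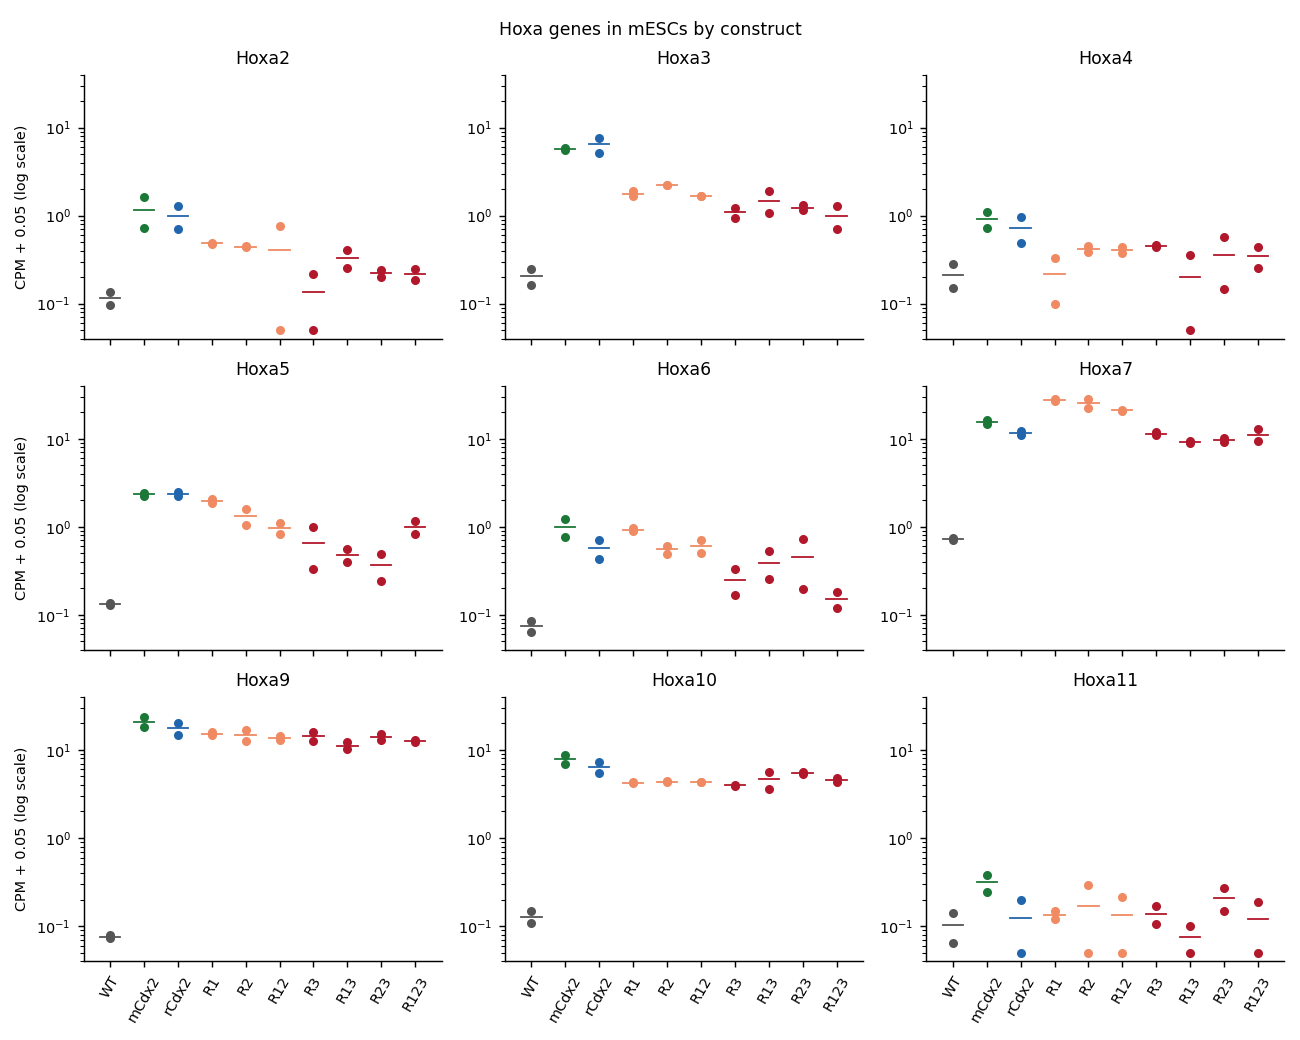
The CPM of each Hoxa gene in mESCs is plotted on a log scale after adding 0.05, so that a library with no read sits at 0.05. Each dot is 1 library, each bar the mean of the 2 libraries of a construct, and the constructs run from WT to R123. The 2 dots of Hoxa7 in R1, R2 and R12 lie above all other constructs, and the dots of Hoxa3 in the 7 mutants lie below those in mCdx2-OE and rCdx2-OE.

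Genes from Hoxa2 to Hoxa10 rose with either intact Cdx2. All 8 members that passed the filter on low counts rose with mCdx2-OE and with rCdx2-OE (adjusted p under the threshold and more than 2-fold), against 18.4% and 19% of all genes tested. Apart from Hoxa7, these genes had mean WT levels of 0.0242 CPM (Hoxa6) to 0.164 CPM (Hoxa4), so they passed the filter through induced libraries. A rise was thus favoured in advance, and their share is not a like comparison with that of all genes. Hoxa11 did not pass the filter, with 8 and 3 reads in mCdx2-OE, 0 and 2 in rCdx2-OE and 1 and 8 in WT. The median log2 fold change of the 8 genes was 4.82 with mCdx2-OE and 4.42 with rCdx2-OE, and that of all genes -0.03 and -0.04.

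The 5' part of the cluster gave the most reads. Hoxa9, a gene of posterior identity, went from 2 and 2 reads in WT to 437 and 362 in mCdx2-OE (18.3 and 23.6 CPM) and 383 and 276 in rCdx2-OE (14.7 and 20.2 CPM). The groups were far apart, and the ratio of pooled CPM to WT was 804 (95% counting interval 313 to 2958) with mCdx2-OE. Hoxa10, which also patterns the posterior axis and the uterus, had 7 and 5 reads in WT, 166 and 135 in mCdx2-OE and 141 and 100 in rCdx2-OE. Its log2 fold change was 6.58 ± 0.28 (SE, adjusted p = 8.51e-12) with mCdx2-OE and 6.27 ± 0.29 with rCdx2-OE. Hoxa7, a gene of thoracic identity, had 347 and 251 reads in mCdx2-OE (14.5 and 16.3 CPM) and 284 and 167 in rCdx2-OE (10.9 and 12.2 CPM). It rose by 4.51 ± 0.17 (adjusted p = 1.64e-12) and 4.09 ± 0.17 from a WT level that was the highest of the cluster.

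The genes from Hoxa2 to Hoxa6 reached at most 133 reads in a library of mCdx2-OE or rCdx2-OE. Hoxa3, needed for the thymus and parathyroid, had 14 and 10 reads in WT, 133 and 90 in mCdx2-OE and 133 and 104 in rCdx2-OE. Its log2 fold changes were 5.17 ± 0.32 (adjusted p = 7.25e-10) and 5.31 ± 0.32. Hoxa5, which acts in the lung and the cervical spine, had 6 and 7 reads in WT, 57 and 34 in mCdx2-OE and 64 and 30 in rCdx2-OE. It rose by 4.72 ± 0.42 and 4.75 ± 0.42 on the log2 scale. Hoxa6 had 1 and 3 reads in WT, 17 and 18 in mCdx2-OE and 10 and 9 in rCdx2-OE. The ratios of pooled CPM to WT were 35.2 (counting interval 12.6 to 136) and 18.9 (6.3 to 76.6). Hoxa2, which patterns the hindbrain and the second pharyngeal arch, had 6 and 4 reads in WT, 16 and 24 in mCdx2-OE and 17 and 17 in rCdx2-OE (log2 fold changes 3.95 ± 0.74 and 3.71 ± 0.76). Hoxa4 moved least, with 7 and 20 reads in WT, 16 and 16 in mCdx2-OE and 24 and 6 in rCdx2-OE (2.27 ± 0.62 and 2.08 ± 0.63). The Hoxa4 call with rCdx2-OE was lost without WT replicate 1 (1.64) or without rCdx2 replicate 1 (1.36).

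The mouse and rat proteins could not be separated at these genes. None of the 8 members passed the test of mCdx2-OE against rCdx2-OE, where 3 of 16000 genes (0.0187%) were called by edgeR, 857 had an unadjusted p under 0.05 and DESeq2 called 21. Hoxa7 came nearest, with 14.5 and 16.3 CPM in mCdx2-OE and 10.9 and 12.2 CPM in rCdx2-OE. The groups did not overlap, and the difference was 0.42 ± 0.14 (95% interval 0.12 to 0.72, unadjusted p = 0.00979, adjusted p = 0.698). The intervals were -0.66 to 0.39 for Hoxa3, -0.11 to 0.64 for Hoxa9 and -0.09 to 0.72 for Hoxa10, and wider still for Hoxa2, Hoxa4, Hoxa5 and Hoxa6.

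From Hoxa2 to Hoxa10, the log2 fold change was higher toward the 5' side, without a steady climb. Spearman's rho between place in the cluster and log2 fold change over the 8 genes was 0.62 with mCdx2-OE and with rCdx2-OE, and 0.81 to 0.93 in the mutants. These values describe 8 genes measured in the same libraries. They leave out Hoxa11, the gene furthest 5', which did not pass the filter. Its ratio of pooled CPM to WT was 4.92 (counting interval 1.85 to 13.4) with mCdx2-OE and 0.886 (0.0932 to 4.28) with rCdx2-OE. Those of Hoxa10 were 101 and 80.1, so the trend did not extend to Hoxa11. Hoxa3, near the 3' end, had a larger fold change than Hoxa7 with either intact protein, and Hoxa9 had a larger one than Hoxa10, which lies further 5'. The plot by position shows the drop at Hoxa4 and the peak at Hoxa9 in each construct.

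**Figure D2:**
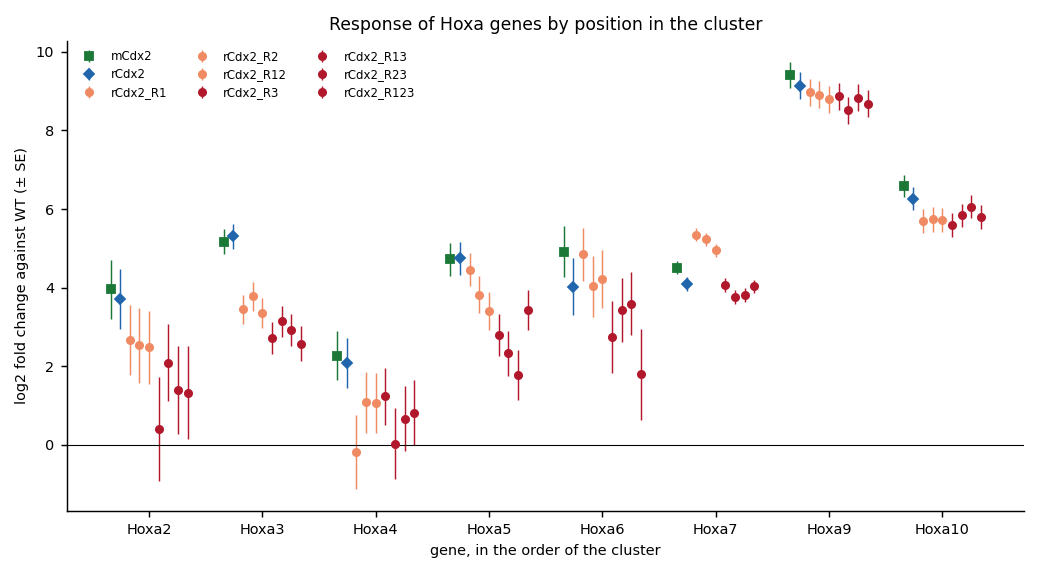
The log2 fold change against WT (± SE) of 8 Hoxa genes is plotted in cluster order for the 9 constructs in mESCs, 2 libraries each. Hoxa9 stands at 8.51 to 9.41 in all constructs, and the constructs spread widely at Hoxa2 to Hoxa6.

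Against WT, 5 of the members rose in each mutant, and the others in some or none. Of the 8 members, 7 rose against WT with R1, R2 and R12 (10.1%, 10.6% and 10.6% of all genes), 6 with R3, R13 and R23 (12.2%, 13.6% and 13.8%) and 5 with R123 (14%). The limit set by the filter on low counts holds for these shares too. Hoxa3, Hoxa5, Hoxa7, Hoxa9 and Hoxa10 rose with each of the 7 mutants. Hoxa4 passed with none of them, with 0 to 7 reads per mutant library and log2 fold changes from -0.19 to 1.23. Hoxa2, with 0 to 13 reads, passed with R1, R2 and R12, and Hoxa6, with 1 to 17 reads, passed with each mutant but R123.

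The calls of the low genes against WT rested on single libraries. The Hoxa2 call was lost with R1 without R1 replicate 1 (2.71), R1 replicate 2 (2.63) or WT replicate 2 (2.27), and with R2 without R2 replicate 1 (2.50), R2 replicate 2 (2.55) or WT replicate 2 (2.13). With R12, where Hoxa2 had 0 and 13 reads, it was lost without WT replicate 2 (2.08) and the sign turned without R12 replicate 2 (-3.71). The Hoxa5 call was lost with R3 without R3 replicate 2 (1.71), with R13 without R13 replicate 2 (1.99), and with R23 without R23 replicate 1 (1.19) or WT replicate 2 (1.73). The Hoxa6 call was lost with R3 without WT replicate 1 (2.35) or R3 replicate 1 (2.02) and with R23 without R23 replicate 1 (2.31). No other mutant call against WT was lost when a library was left out.

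Hoxa7 divided the mutants by change 3. It had 402 and 545 reads (28.3 and 26.9 CPM) in R1, 275 and 512 (22.1 and 28.4 CPM) in R2, and 327 and 376 (21.1 and 20.8 CPM) in R12. In the mutants with change 3 it had 196 and 200 reads (11 and 11.8 CPM) in R3, 137 and 177 (9.41 and 8.95 CPM) in R13, 135 and 189 (10 and 9.14 CPM) in R23, and 137 and 195 (9.42 and 12.7 CPM) in R123. The 6 libraries without change 3 lay between 20.8 and 28.4 CPM and the 8 libraries with it between 8.95 and 12.7 CPM, with no overlap. Against rCdx2-OE, Hoxa7 was higher by 1.26 ± 0.14 (adjusted p = 2.54e-06) in R1, by 1.14 ± 0.14 (adjusted p = 8.74e-06) in R2 and by 0.86 ± 0.14 (adjusted p = 0.000123) in R12. With change 3 no difference from rCdx2-OE passed the test. The estimates were -0.02 (95% interval -0.33 to 0.29) in R3, -0.33 (-0.64 to -0.01) in R13, -0.27 (-0.59 to 0.04) in R23 and -0.06 (-0.37 to 0.26) in R123. In R1, R2 and R12, 20.3%, 19.1% and 20.6% of all genes were higher than in rCdx2-OE, and Hoxa7 was the 1 member among them in each.

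Hoxa3 separated all mutants from the intact proteins. The 4 libraries of mCdx2-OE and rCdx2-OE had 90 to 133 reads and 5.11 to 7.62 CPM, and the 14 mutant libraries had 10 to 39 reads and 0.653 to 2.17 CPM. No mutant library reached an intact one. Against rCdx2-OE, Hoxa3 was lower in each mutant, from -1.53 ± 0.28 (adjusted p = 0.000391) in R2 to -2.73 ± 0.32 (adjusted p = 4.22e-06) in R123, and these 7 calls held when any library was left out. Lower genes made up 23.7% of all genes tested in R1, 22.6% in R2, 22.8% in R3, 23.2% in R12, 23.5% in R13, 23.5% in R23 and 24.1% in R123. Of the 8 members, 3 were lower in R1, R12, R13 and R23 and 2 in R2, and 4 were lower in R3 and R123. The share of members in R2 is close to that of all genes, and the share in R3 and R123 is above it. That excess includes Hoxa2 in R3 and R123 and Hoxa6 in R123, with 0 to 3 reads in each of these mutant libraries. Without the filter on low counts, 2 members were called in R123.

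Hoxa5 was lower than in rCdx2-OE in 5 of the 7 mutants. It had 64 and 30 reads (2.46 and 2.2 CPM) in rCdx2-OE, 29 and 37 (2.04 and 1.83 CPM) in R1 and 19 and 18 in R2, where it did not pass. It had 12 and 19 reads in R12, 5 and 16 in R3, 5 and 10 in R13, 6 and 4 in R23 and 16 and 12 in R123. Its log2 fold change was -1.95 ± 0.40 in R3, -2.42 ± 0.43 in R13 and -2.96 ± 0.46 (adjusted p = 7.64e-05) in R23. In R12 (-1.35 ± 0.38) the call was lost without rCdx2 replicate 1 (-1.25) or R12 replicate 1 (-1.16). In R123 (-1.32 ± 0.38) it was lost without rCdx2 replicate 1 (-1.22) or R123 replicate 2 (-1.09).

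At the 5' end the mutants overlapped rCdx2-OE and lay below mCdx2-OE. Hoxa9 had 147 to 325 reads and 10.1 to 16.9 CPM in the 14 mutant libraries, against 14.7 and 20.2 CPM in rCdx2-OE, and those ranges overlapped. The mCdx2-OE libraries, at 18.3 and 23.6 CPM of Hoxa9 and 6.94 and 8.78 CPM of Hoxa10, lay above all mutant libraries. Hoxa9 was lower than in rCdx2-OE in R13 (-0.63 ± 0.18, adjusted p = 0.0111), a call lost without R13 replicate 1 (-0.50) or rCdx2 replicate 2 (-0.39). Hoxa10 had 3.57 to 5.61 CPM in the mutants and 5.42 and 7.33 CPM in rCdx2-OE. It was lower in R1 (-0.57 ± 0.20), R2 (-0.53 ± 0.21), R3 (-0.67 ± 0.20) and R12 (-0.56 ± 0.20), by less than 2-fold each time. Without rCdx2 replicate 2, which has the higher level, none of these 4 calls remained (-0.36, -0.32, -0.45 and -0.34), and each was also lost without either library of its mutant, with estimates from -0.69 to -0.53. DESeq2 made the call in R3 and not in R1, R2 or R12.

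Further calls against rCdx2-OE came from a few reads. Hoxa2, with 17 and 17 reads in rCdx2-OE, was lower in R3 (3 and 0 reads, -3.30 ± 1.01), R23 (2 and 4 reads, -2.32 ± 0.89) and R123 (2 and 3 reads, -2.38 ± 0.92). Without rCdx2 replicate 2 the 3 calls were lost (-2.84, -1.86 and -1.93), and each was lost without replicate 2 of its mutant (-2.38, -2.56 and -2.67). Those in R23 and R123 were lost without replicate 1 of the mutant too (-2.19 and -2.18). Hoxa4 was lower in R1 (4 and 1 reads against 24 and 6, -2.27 ± 0.86, adjusted p = 0.043), lost without rCdx2 replicate 1 (-1.53) or R1 replicate 2 (-1.35) and with DESeq2 (-2.19). Hoxa6 was lower in R123 (1 and 2 reads against 10 and 9, -2.23 ± 0.86, adjusted p = 0.0429). That call was lost whichever of the 4 libraries was left out, with estimates from -2.76 to -1.88, and with DESeq2 (-2.34). Without the filter on low counts the calls of Hoxa4 in R1, Hoxa6 in R123 and Hoxa2 in R23 and R123 were lost too.

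Tested jointly, Hoxa3 (adjusted p = 8.37e-06), Hoxa5 (adjusted p = 0.000278) and Hoxa7 (adjusted p = 1.03e-07) differed among rCdx2-OE and the 7 mutants. These are 3 of 8 members, and 51.4% of all genes differed by the same test, so the share of members lay under that of all genes. Hoxa6 missed the threshold with adjusted p = 0.0562 and Hoxa9 with adjusted p = 0.166. The mutants as a set differed from rCdx2-OE at 6683 to 7401 genes each, whereas mCdx2-OE differed at 3. Whether the changes or the separate derivation of the lines set these numbers cannot be told apart in this design.

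When the 16 libraries of rCdx2-OE and the mutants were fitted with 1 additive effect per change, no member passed the test for change 1 or change 2. For those changes 0 of 15114 genes passed (0% and 0%), with 1995 and 1569 genes at an unadjusted p under 0.05 and 22 genes called by DESeq2 for change 1. The largest estimates were those of Hoxa3, for change 1 at -0.69 ± 0.28 (95% interval -1.28 to -0.10, adjusted p = 0.344) and for change 2 at -0.66 ± 0.28 (-1.25 to -0.07, adjusted p = 0.471). The estimates for Hoxa7 were 0.20 ± 0.18 and 0.15 ± 0.18, and for Hoxa9 -0.20 ± 0.10 and -0.07 ± 0.10. With change 3, 5 of the 7 members tested were lower, against 18.4% of all genes. They were Hoxa2 (-1.51 ± 0.51), Hoxa3 (-1.21 ± 0.28, adjusted p = 0.00314), Hoxa5 (-1.46 ± 0.33, adjusted p = 0.00256), Hoxa6 (-1.24 ± 0.38) and Hoxa7 (-1.03 ± 0.18, adjusted p = 0.000287). Hoxa9 (-0.23 ± 0.10, adjusted p = 0.0693) and Hoxa10 (-0.04 ± 0.14) did not pass. Hoxa2 had 17 and 17 reads in rCdx2-OE and 0 to 7 per library with change 3. Hoxa6 had 7 to 17 reads in the mutants without change 3 and 1 to 9 with it. Both passed the filter mainly through libraries without change 3. A fall was thus favoured in advance for them, and the share of members is not a like comparison with that of all genes. An additive estimate averages over the mutants: at Hoxa7, R3 was -0.02 from rCdx2-OE, and R1, R2 and R12 lay above the mutants with change 3. The median over the 7 genes was -1.21 and over all genes -0.01. The Hoxa2 call was lost without R3 replicate 1 (-1.43), R3 replicate 2 (-1.25), rCdx2 replicate 2 (-1.29) or R12 replicate 2 (-1.26). Cdx2 itself was lower with change 3 by 0.74 ± 0.26 on the log2 scale (adjusted p = 0.0367), and its part in the lower Hoxa levels was not tested.

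The levels of Hoxa7 and Hoxa3 in the mutants departed from a sum of 1 effect per change. The joint test of the 4 interaction terms passed for these 2 of 7 members (adjusted p = 0.000135 and 0.00708), against 28.9% of all genes, and Hoxa5 missed it with adjusted p = 0.0566. The share of members is close to that of all genes. Each term is measured from the rCdx2-OE line, so the changes and the separate derivation of the lines cannot be told apart. At Hoxa7 the pairwise terms were -1.53 ± 0.20 for changes 1 and 2, -1.57 ± 0.21 for changes 1 and 3 and -1.39 ± 0.21 for changes 2 and 3, so each pair gave less than the sum of its members, and the term for the 3 changes together was 2.06 ± 0.30 (adjusted p = 0.000467). At Hoxa3 they were 1.43 ± 0.44, 2.28 ± 0.47 and 1.74 ± 0.47, so each pair lost less than the sum, and the term for the 3 changes together was -2.20 ± 0.70 (adjusted p = 0.0454). In R123 the level of Hoxa7 was that of rCdx2-OE, while R1 and R2 were above 2-fold higher than rCdx2-OE.

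R123 carries the 3 mouse changes in the rat protein, so it was also set against mCdx2-OE. Of the 8 members, 7 were higher in mCdx2-OE, against 22.3% of all genes. Hoxa2 (16 and 24 reads against 2 and 3 in R123) and Hoxa6 (17 and 18 against 1 and 2) passed the filter through libraries other than R123. A higher level in mCdx2-OE was thus favoured in advance for them, and the share is not a like comparison. Hoxa3 was higher by 2.59 ± 0.32 (adjusted p = 9.88e-06), Hoxa6 by 3.12 ± 0.77, Hoxa9 by 0.73 ± 0.18 (adjusted p = 0.00466), Hoxa10 by 0.79 ± 0.20 and Hoxa7 by 0.47 ± 0.14 (adjusted p = 0.0156). Hoxa2 and Hoxa5 were higher by 2.63 ± 0.90 and 1.29 ± 0.38, and Hoxa4 did not pass (1.45 ± 0.76). The call was lost for Hoxa2 without mCdx2 replicate 2 (1.96), R123 replicate 1 (2.43) or R123 replicate 2 (2.92), for Hoxa5 without mCdx2 replicate 1 (1.23) or R123 replicate 2 (1.06), and for Hoxa7 without R123 replicate 1 (0.28) or mCdx2 replicate 2 (0.38). Cdx2 was at 97.9 and 127 CPM in mCdx2-OE and at 62 and 39 CPM in R123, and its part in these differences was not tested.

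Among the 8 rat-based constructs, Hoxa7 was highest in the constructs with the highest mean Cdx2 level. Cdx2 averaged 107, 104.2 and 102.7 CPM in R1, R2 and R12, where Hoxa7 averaged 27.6, 25.2 and 20.9 CPM. In the other 5 constructs Cdx2 averaged 50.5 to 69.4 CPM and Hoxa7 9.18 to 11.6 CPM, so neither gene overlapped between these sets of means. The libraries of replicate 1 divided the same way, with Cdx2 at 145 to 147 CPM in R1, R2 and R12 and at 62 to 94.4 CPM in the rest.

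In replicate 2, Cdx2 was lower than in replicate 1 in each of the 7 mutants, and the sets were others. It stood at 60.6 to 68.8 CPM in rCdx2-OE, R1, R2 and R12 and at 37.2 to 44.3 CPM in the 4 mutants with change 3. Hoxa3 (1.61 to 7.62 against 0.653 to 1.26 CPM) and Hoxa5 (0.999 to 2.2 against 0.193 to 0.941 CPM) did not overlap between these sets, while Hoxa9 (14.3 to 20.2 against 12.2 to 15.9 CPM) did. Change 3 and the Cdx2 level cannot be told apart between them. At like Cdx2 levels of 67, 68.8, 61.9 and 60.6 CPM, rCdx2-OE, R1, R2 and R12 of replicate 2 had Hoxa7 at 12.2, 26.9, 28.4 and 20.8 CPM and Hoxa3 at 7.62, 1.63, 2.16 and 1.61 CPM. The constructs thus fell into separate sets in Cdx2 level, of fewer than 6 constructs each, so no correlation is given and the part of the Cdx2 level in the Hoxa7 pattern was not tested.

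**Figure D3:**
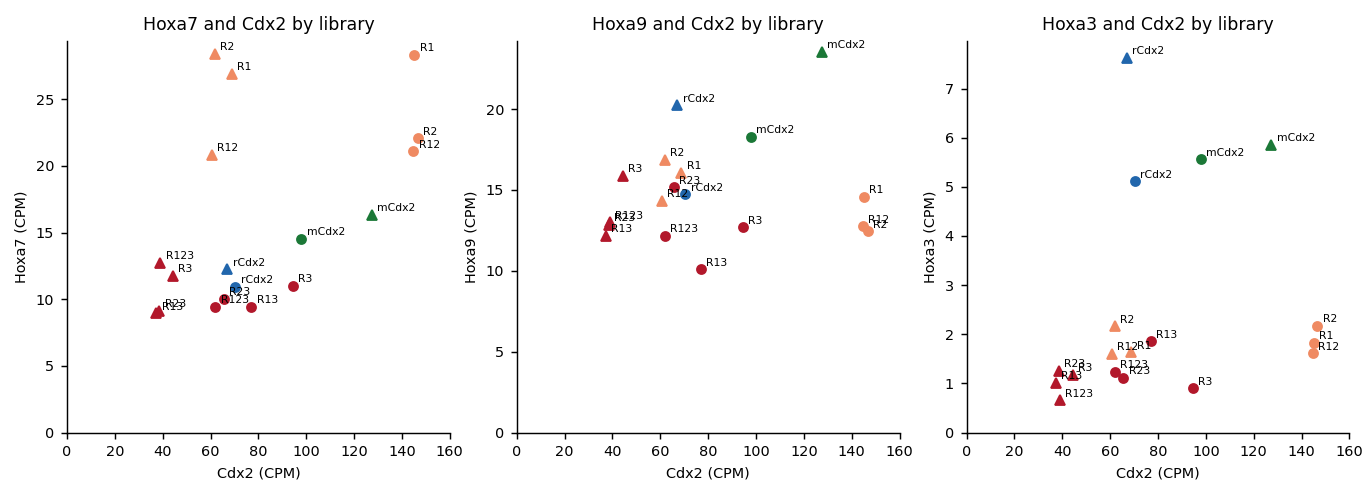
Hoxa7, Hoxa9 and Hoxa3 (CPM, linear axes from 0) are plotted against Cdx2 (CPM) in the 18 induced mESC libraries, with circles for replicate 1 and triangles for replicate 2. R1, R2 and R12 form the highest Hoxa7 values at Cdx2 levels of 60.6 to 68.8 CPM in replicate 2 and 145 to 147 CPM in replicate 1, and mCdx2-OE and rCdx2-OE form the highest Hoxa3 values.

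Per kb of exon, the order of the 3 highest genes was shared by the 9 constructs. Hoxa7 was followed by Hoxa9 and then Hoxa10 in each, and these neighbours did not overlap between their libraries. In mCdx2-OE the mean levels were 5.51, 3.75 and 2.40 CPM per kb, followed by Hoxa5 at 1.22. Hoxa7 to Hoxa11 made up 71.9% and 73.8% of the summed level of the 9 genes in mCdx2-OE, 69.8% and 71.2% in rCdx2-OE, and 83.1% to 91.9% in the 14 mutant libraries. In R1, R2 and R12, Hoxa7 alone held 54.6% to 62.2%, against 30.2% to 35.7% in mCdx2-OE and rCdx2-OE. Hoxa9 (15.45% to 18.9% against 22.5% to 25%) and Hoxa10 (7.64% to 10.4% against 14.1% to 15.5%) held smaller shares there. The ratio of Hoxa7 to Hoxa9 was 2.9 to 3.87 in R1, R2 and R12 and 1.21 to 1.95 in the other induced libraries. Across the 18 induced libraries, the members with Pearson correlations over 0.8 were Hoxa2 and Hoxa3 (r = 0.87). Hoxa7 went least with the rest, from r = -0.22 with Hoxa10 and 0.12 with Hoxa3 to 0.46 with Hoxa5 and 0.59 with Hoxa6. These libraries share constructs, and the values are a description.

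In RMES cells the 5' genes started high and fell. On the mouse allele, Hoxa7 had 2151 and 2620 reads (66.3 and 73.1 CPM) in the WT libraries, 240 (5.72 CPM) in mCdx2-OE and 150 (3.59 CPM) in rCdx2-OE. Hoxa9 had 1424 and 1675 reads in WT, 137 in mCdx2-OE and 165 in rCdx2-OE. Hoxa10 had 794 and 805, 34 and 44, and Hoxa11 had 20 and 41, 1 and 1. Both induced libraries were below both WT libraries for each of the 4 genes. With the mCdx2-OE and rCdx2-OE libraries as replicates of 1 induced group, Hoxa7 fell by 3.90 ± 0.14 on the log2 scale (adjusted p = 8.57e-11), Hoxa9 fell by 3.65 ± 0.11 (adjusted p = 1.83e-11) and Hoxa10 fell by 4.65 ± 0.16 (adjusted p = 4.85e-11). For Hoxa11 the ratio of WT to induced CPM was 37.4 (counting interval 9.92 to 316). Hoxa6 had 14 and 18 reads in WT, 3 in mCdx2-OE and 7 in rCdx2-OE and fell by 1.94 ± 0.54, a call lost with DESeq2, without WT replicate 2 (-1.84) and without the mCdx2-OE library (-1.48).

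The 3' genes of the mouse allele did not pass. Hoxa3 had 48 and 68 reads in WT, 43 in mCdx2-OE and 54 in rCdx2-OE (-0.55 ± 0.27, 95% interval -1.14 to 0.05, adjusted p = 0.081). Hoxa4 (10, 15, 9 and 20 reads) and Hoxa5 (11, 14, 15 and 9 reads) had intervals of -1.16 to 1.01 and -1.38 to 0.68. Hoxa2, with 10 and 10 reads in WT and 4 in each induced library, did not pass the filter. Of the 8 members tested, 5 fell and none rose, against 16.1% of all genes lower and 28.3% higher. Hoxa6 and Hoxa11 passed the filter through the WT libraries, so a fall was favoured in advance and the share is not a like comparison. Spearman's rho of the log2 fold change with place in the cluster was -0.90 over the 8 genes. It leaves out Hoxa2, the gene furthest 3', whose ratio of WT to induced CPM was 3.07 (counting interval 1.29 to 8.05). The ratios were 1.47 (1.11 to 1.94) for Hoxa3, 1.06 (0.594 to 1.87) for Hoxa4 and 1.28 (0.70 to 2.34) for Hoxa5, with intervals that overlapped that of Hoxa2. The summed level of 11 posterior mesoderm markers moved with the members that fell, from 327 to 359 CPM in WT to 21.2 to 24.8 CPM in the induced libraries. Of the 8 markers tested, 4 were lower and 2 higher. In mESCs the sum of 10 of these markers fell too, from 63.2 to 65.4 CPM in WT to 26.2 to 35.1 CPM in mCdx2-OE and rCdx2-OE, where the Hoxa genes rose. The sum of the 10 pluripotency markers went from 7604 to 7677 CPM down to 2985 to 3036 CPM, with 6 of them lower and 0 higher. The sum of the 8 primitive endoderm markers went from 236.5 to 242.2 down to 52.9 to 55.5 CPM, although 5 of the 8 were higher and 1 lower. That of the 8 fibroblast markers went from 167.7 to 175.4 down to 81.5 to 87.2 CPM, with 3 of the 6 tested lower and 1 higher. The 9 trophoblast markers went from 172.7 to 181.5 up to 994.6 to 1126 CPM. Cdx2 itself was present before induction, with 129 and 127 CPM on the mouse allele and 453 and 440 CPM on the rat allele of the WT libraries. On the mouse allele it stood at 968 CPM in mCdx2-OE and 4.45 CPM in rCdx2-OE, and on the rat allele at 47.2 and 880 CPM. The part of the markers and of the earlier Cdx2 in the fall of the Hoxa genes was not tested.

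The rat allele table holds 5 of the 9 genes, and the other 4 were not analysed here. In the order WT, WT, mCdx2-OE, rCdx2-OE, Hoxa7 had 18, 7, 0 and 0 reads, Hoxa6 11, 9, 3 and 1, Hoxa4 8, 8, 2 and 2, and Hoxa2 2, 8, 1 and 0. Hoxa11 had no read. For the first 3 genes both induced libraries were below both WT libraries. With the floor of 3 counts over the induced group, Hoxa7 was at least 11-fold lower (the lower end of the counting interval was 8.32), and the ratios of WT to induced CPM were 6.61 (counting interval 2.21 to 26.6) for Hoxa6 and 5.29 (1.71 to 21.7) for Hoxa4. None of the 5 passed the filter for a test of the rat allele. The rat allele gave Hoxa7 at 0.658 and 0.234 CPM in WT, and the mouse allele 66.3 and 73.1 CPM, but the tables were scaled separately and the rat value rests on few reads. The response of the mouse allele was set against that of the rat allele for Hoxa4, Hoxa6, Hoxa7 and Hoxa11, and 0 of 4 passed, against 62.1% of all genes. The difference was 2.22 ± 1.08 (adjusted p = 0.0792) for Hoxa4, 0.68 ± 1.20 for Hoxa6 and 3.08 ± 1.79 for Hoxa7, and could not be estimated for Hoxa11.

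The response of Hoxa6, Hoxa7, Hoxa9 and Hoxa10 to Cdx2 thus differed in sign between mESCs and the mouse allele of RMES cells. In a joint fit of 10 libraries, the log2 fold change was higher in mESCs for 9 of 9 members, against 25.7% of all genes. The fit was chosen after the responses in both cell types had been seen. The limit set by the filter on low counts holds here too, so the share is not a like comparison. The difference was 13.1 ± 0.37 for Hoxa9 (adjusted p = 8.29e-10), 11.2 ± 0.36 for Hoxa10, 8.26 ± 0.32 for Hoxa7 (adjusted p = 6.39e-09), 6.62 ± 0.89 for Hoxa6 and 5.84 ± 0.41 for Hoxa3. For Hoxa9 the size depends on 4 WT reads in mESCs. The Hoxa4 difference (2.31 ± 0.74) was lost without WT replicate 1 (1.85), RMES WT replicate 2 (2.05) or the RMES mCdx2-OE library (1.84). For Hoxa7 the end levels were closer than the starting levels: the induced libraries had 10.9 to 16.3 CPM of Hoxa7 in mESCs and 3.59 to 5.72 CPM in RMES cells, while WT had 0.651 to 0.694 and 66.3 to 73.1 CPM. For Hoxa5 they were further apart, at 2.2 to 2.46 and 0.215 to 0.358 CPM in the induced libraries and 0.0799 to 0.0850 and 0.339 to 0.390 CPM in WT. The counts of RMES cells were split by allele and scaled on their own, so levels are set side by side without a test.

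**Figure D4:**
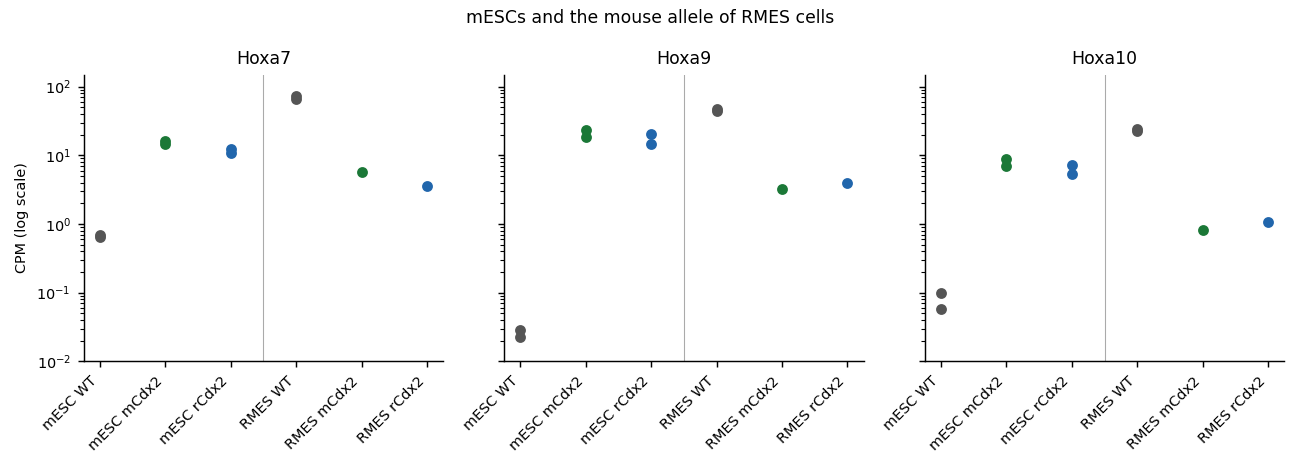
Hoxa7, Hoxa9 and Hoxa10 (CPM, log scale) are plotted by library in mESCs and on the mouse allele of RMES cells, with a grey line between cell types. WT is the lowest group in mESCs and the highest in RMES cells for the 3 genes.

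Chromatin over the cluster gave more ATAC-seq reads in the mCdx2-OE library of mESCs than in the WT library. Of the 35 ATAC-seq peaks in the window, 28 had at least 40 reads after scaling to equal depth. Of these 28, 12 were more than 2-fold higher in mCdx2-OE and 0 lower, against 13.7% and 20.5% of all peaks with enough reads. All 28 had a log2 ratio above 0, with a median of 0.88, and the median of all peaks was -0.13. Over the 35 peaks, which cover 33989 bases, the scaled reads summed to 2780 in mCdx2-OE and 1358 in WT, a ratio of 2.05. With 1 library per group there is no test, and these values compare the 2 libraries.

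The strongest of these peaks lay at Hoxa7. The peak at chr6:52215857-52219516, over Hoxa7 exons, had 484 reads in mCdx2-OE and 102 in WT (log2 ratio 1.80), and the one at chr6:52221365-52222673, over the 5' start of Hoxa7, had 321 and 88 (1.42). The highest ratio among peaks with enough reads was at chr6:52230529-52231124, at the 5' end of Hoxa9, with 91 and 10 reads (2.65). The peak at chr6:52200632-52201551, which holds the printed window 3' of Hoxa5, had 86 and 11 reads (2.44), and one at chr6:52183011-52183338, in an intron of Hoxa3, had 44 and 1 (4.17) but fell short of 40 scaled reads. The lowest ratio was -0.68 at chr6:52229073-52229293, in Hoxa9, from 8 and 10 reads. The peaks at the start of Hoxa5 (129 and 78 reads) and at Hoxa2 (33 and 20 reads) had ratios of 0.28 and 0.27.

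**Figure D5:**
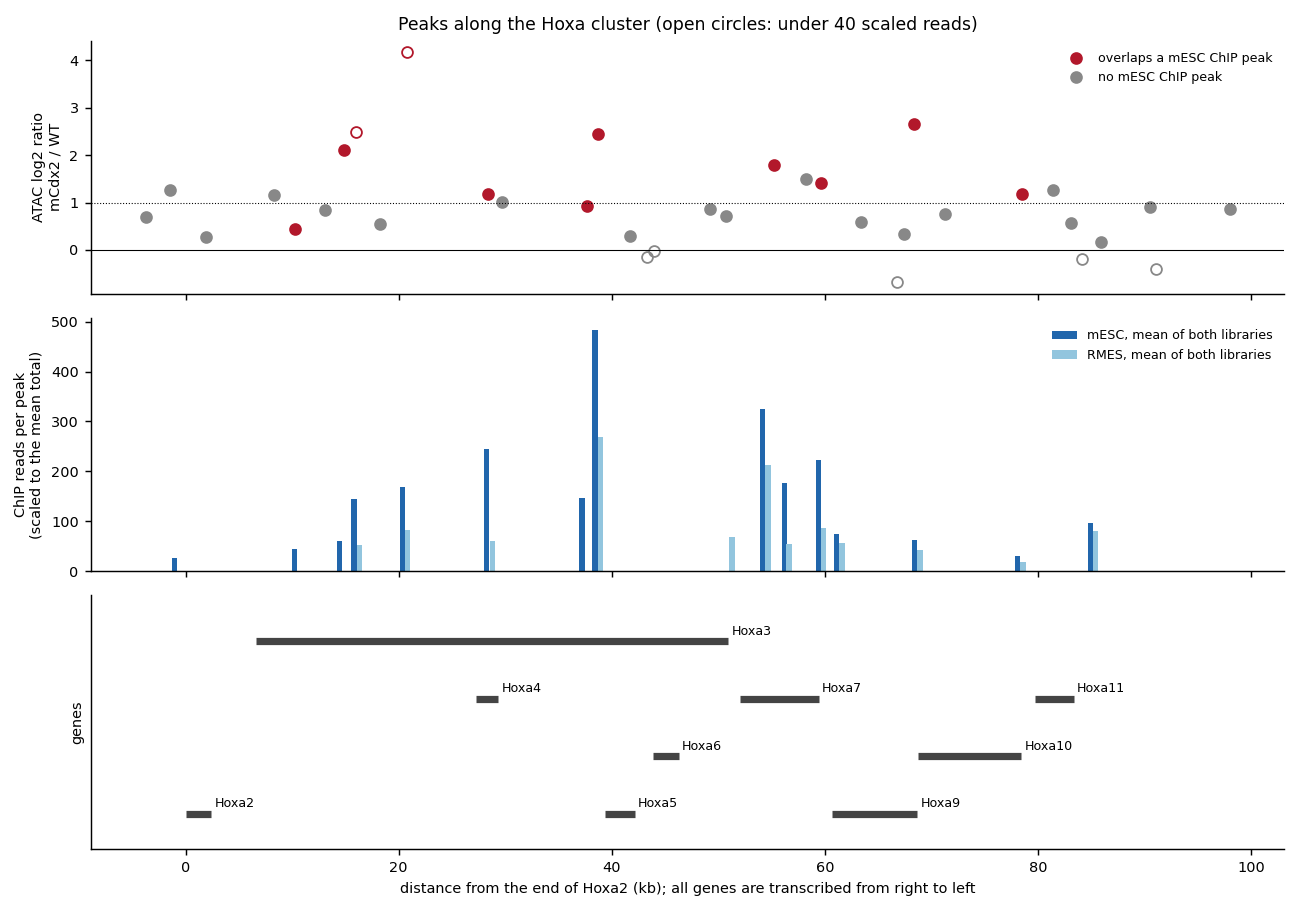
The top panel shows the log2 ratio of ATAC-seq reads (mCdx2-OE over WT) for 35 peaks by distance from the 3' end of Hoxa2 in kb, with a dotted line at 2-fold, open circles for peaks under 40 scaled reads and red for peaks that overlap a Cdx2 ChIP-seq peak of mESCs. The middle panel gives the mean scaled ChIP-seq reads of each Cdx2 peak in mESCs and RMES cells, and the bottom panel the genes. The tallest ChIP-seq peaks stand at 38.7 and 54.4 kb, 3' of Hoxa5 and within Hoxa7.

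Cdx2 peaks at the cluster differed little in reads between mouse and rat protein. The columns of the ChIP-seq tables were read as mCdx2-OE and rCdx2-OE from the initials of their names, in mESCs and RMES cells alike, so the direction of each ratio rests on that reading. Of the 15 ChIP-seq peaks in mESCs, 0 differed more than 2-fold between mCdx2-OE and rCdx2-OE in either direction, against 0.452% higher and 0.46% lower among all peaks. The log2 ratios ran from -0.73 at chr6:52240615-52240909, at Hoxa10, to 0.40 at chr6:52161497-52161775, 3' of Hoxa2. The peaks with the most reads were at chr6:52200867-52201323 (530 in mCdx2-OE and 438 in rCdx2-OE), chr6:52216615-52216991 in Hoxa7 (342 and 306) and chr6:52190691-52191142 in Hoxa4 (223 and 263). In RMES cells, 12 peaks were called on the mouse genome and 0 differed more than 2-fold, against 0.977% and 1.11% of all peaks. The ratios ran from -0.68 at chr6:52182863-52183146, in an intron of Hoxa3, to 0.33 at chr6:52218693-52218915, in Hoxa7. The peaks with the most reads were at chr6:52200900-52201304 (286 and 247), chr6:52216664-52216974 (214 and 206) and chr6:52221911-52222213 (106 and 69), upstream of Hoxa7.

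The mESC and RMES peak sets shared 11 peaks, which are 73.3% of the 15 in mESCs and 91.7% of the 12 in RMES cells. The RMES peak outside the mESC set was at chr6:52213307-52213569, by the far 5' start of Hoxa3, with 70 and 67 reads. So binding was called at the cluster in both cell types, in which the 5' genes moved in opposite directions. Of the 15 mESC peaks, 12 (80%) overlapped an ATAC-seq peak, and 11 of the 35 ATAC-seq peaks (31.4%) overlapped an mESC ChIP-seq peak. The shares over all peaks were not computed, so whether these overlaps are particular to the cluster cannot be told. Peaks were called on merged reads, so presence in each library alone cannot be read from them.

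Letters of the Cdx2 site were common in these peaks. The word CATAAA on either strand was found in the central 200 bases of 10 of the 15 mESC peaks and 10 of the 12 RMES peaks, and in 40.6% and 41.9% of all peaks of the same assays. CAATAAA, another form of the site, was found in 4 of 15 (24.9% of all peaks) and 1 of 12 (25.8%). Of the ATAC-seq peaks in the window, 7 of 35 held CATAAA, against 10.4% of all. Neither word contains the other. In the 250 bases before the start site, 8 members had a RefSeq promoter sequence on this build. The promoter of Hoxa7 held CATAAA, at 2 places, and no other member's did, and the word was found in 10.8% of all promoters. A match of letters is a description and not a site.

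Other genes tied to the cluster were read from lists. Of 25 tested genes of the Hoxb, Hoxc and Hoxd clusters, 21 rose and 0 fell with mCdx2-OE, against 18.4% and 15% of all genes tested. Hoxd4 rose by 8.13 ± 0.33, from 3 and 2 reads to 220 and 178, and Hoxd3 by 6.87 ± 0.67, from 0 and 1 reads to 26 and 26. Genes this low in WT passed the filter on low counts through induced libraries. A rise was favoured in advance for them, so the shares of these clusters against WT are not a like comparison with those of all genes. With R123, 17 of the 25 rose, against 14% of all genes. On the RMES mouse allele 6 of 23 rose and 9 fell, against 28.3% and 16.1% of all genes. Of 9 tested neighbours and antisense genes of the Hoxa cluster, 3 rose and 1 fell with mCdx2-OE, among them Jazf1, a zinc finger gene beyond the cluster (13 and 13 reads in WT, 94 and 53 in mCdx2-OE, 4.44 ± 0.37), and Hoxaas3, antisense to Hoxa3 (6 and 5 reads in WT, 9 and 15 in mCdx2-OE, 3.09 ± 0.65). Of 9 TALE homeobox genes, whose proteins are Hox cofactors, 5 rose, against 18.4% of all genes, with Meis1 at 2.71 ± 0.20 and Meis3 at 1.72 ± 0.30. Of 22 Polycomb genes, 4 rose and 2 fell, shares near or under the 18.4% and 15% of all genes, with Cbx8 at 1.85 ± 0.22.

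The genes whose pattern over the 18 induced libraries came nearest to the mean of the 8 tested members were Tifa (r = 0.963), Sema3e (0.962), Sec22c (0.962), Nsd2 (0.96) and Ubxn4 (0.959), among 11292 genes ranked. Tifa stood at 0.161 CPM in WT, 7.91 in mCdx2-OE, 6.06 in rCdx2-OE, 2.4 in R1 and 0.974 in R123. Nsd2 stood at 79.1, 155, 150.7, 136 and 116 CPM in the same order. The libraries share constructs, so these correlations are a description.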

How the data were processed

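All values were counts that the authors deposited without normalisation. Per the file headers and the study's methods, RNA-seq pairs were aligned with STAR 2.7.0d and counted by strand on mm10 genes with featureCounts (1.6.0 in the headers that give a version, an earlier one in the methods for RNA-seq), RMES reads were assigned to mm10 or rn6 by edit distance, and ATAC-seq and ChIP-seq peaks were called with MACS2 on merged reads aligned with Bowtie2 2.3.4.3. A shift of ATAC-seq reads is not given in the sources used here.

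Counts were fitted in edgeR 4.0.16 (R 4.3.3, TMM, filterByExpr, quasi-likelihood test, Benjamini-Hochberg over all genes tested), with DESeq2 1.42.0 as an alternative, and the 20 mESC libraries shared 1 fit. A call needed an adjusted p under 0.05 and, against WT, a change over 2-fold. In RMES cells the mCdx2-OE and rCdx2-OE libraries formed 1 group, as in the study's design. Standard errors came from the fold change and F, and intervals of fold changes from the t distribution at the fit's degrees of freedom. Counting intervals are 95% exact intervals and cover counting error only. For peaks, each library was brought to the average depth of the pair, with a pseudocount of 1. The tests were tried on simulated data. The alternatives were another normalisation, DESeq2, no filter, a replicate block, left-out libraries and other peak thresholds.

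The members and lists were chosen with earlier results of these data known, and the comparison of mESCs with RMES cells was added after the values were seen. Other genes were named by rule: at most the 2 genes of a list with the largest change called with mCdx2-OE, and the 5 genes nearest in pattern among those with a mean of at least 50 counts. The peaks named have the most reads or extreme ratios, beside a few at member genes chosen after their values were seen. Some genes and peaks are not reported here. Of the exon bases, 15% of Hoxa2 and 8.01% of Hoxa3 are shared on the same strand with Gm28308, and 1.52% of Hoxa9 with Mir196b. The planned correlation of Cdx2 with the members is not given, since constructs formed separate sets in Cdx2 level. Depth was 29453412 to 41418817 counts per allele of an RMES library, 6109353 to 8277850 for ATAC-seq and 3387074 to 6223794 for ChIP-seq. Replicates varied with 2.77 to 7.64 times the variance of read sampling.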

Additional observations from a re-analysis of the deposited data

Results flagged for a closer look

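The log2 response to Cdx2 differed between mESCs and the mouse allele of RMES cells by a test of the difference itself, in a comparison chosen after the values were seen. The difference was 6.62 for Hoxa6, 8.26 for Hoxa7, 13.1 for Hoxa9 and 11.2 for Hoxa10, with a rise in mESCs and a fall in RMES cells for each of the 4 genes. In the same comparison the summed posterior mesoderm markers were 63.2 to 65.4 CPM in WT mESCs and 327 to 359 CPM on the mouse allele of WT RMES cells, and their part in the difference was not tested.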

How the results depend on the processing

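Over 8 kinds of alternative, 2161 results on single members were recomputed, and 77 lost their call, 28 gained one and 1 changed sign, the R12 response of Hoxa2, which ran from -3.71 without R12 replicate 2 to 3.39 without R12 replicate 1. Where 1 library of a construct is left, it is assumed to vary like the others. The number of members called changed from 4 to 2 for R1 against rCdx2-OE with DESeq2 and for R123 against rCdx2-OE without the filter on low counts. On the rat allele it changed from 0 to 3 without the filter and to 1 with DESeq2. ATAC-seq peaks past the threshold went from 12 to 22 without scaling and to 3 at 4-fold, and ATAC-seq peaks that overlap a ChIP-seq peak from 11 to 3 when at least 50% had to be covered. Leaving out single libraries gave 2 to 3 members for R1, 2 to 4 for R12, 1 to 4 for R123, 2 to 5 for R13 and 2 to 4 for R3 against rCdx2-OE, 1 to 2 for the rat allele and 0 to 1 for the difference between alleles. The causes were not tested. Over all genes, the 3 calls of mCdx2-OE against rCdx2-OE became 1 without the filter, 21 with DESeq2 and 0 to 1 without single libraries, and the 0 calls of change 1 became 22 with DESeq2 and 2 without R3 replicate 2.

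Replicate numbers were not taken to pair the samples, since not every pair of groups had a correlation over 0.1: over 45 pairs of groups the correlation of deviations ran from -0.21 to 0.64, with 22 over 0.1. With the replicate block, 1 gene in place of 3 differed between mCdx2-OE and rCdx2-OE. Hoxa9 gained a call in the joint test of the mutants (adjusted p = 0.0398), for change 3 (-0.23) and for R123 against rCdx2-OE (-0.46), while Hoxa4 in R1 (-2.28) and Hoxa6 in R123 (-2.23) lost theirs. The replicate block changed no other call of a member. Depth limits Hoxa2, Hoxa4, Hoxa6 and Hoxa11, with at most 24 reads in any mESC library.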
